A study of Mus musculus with 32 samples.

Results

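The 10 germline genes described here were measured by RNA sequencing in E14 mouse embryonic stem cells after loss of the loop extruder subunit RAD21, after loss of the boundary factor CTCF and after knockdown of the chromatin remodeller Chd4. They are Dazl, Ddx4, Mael, Sycp1, Sycp3, Stk31, Slc25a31, Tuba3a, Tuba3b and Magea2, out of 17440 genes listed in at least 1 of the 5 deposited tables. Measured values chose them: the choice was made with the differences after RAD21 loss, CTCF loss and the Chd4 hairpin in view, so those 3 sets of differences are given here as a description with no p-value, and the counts past a threshold in them carry no evidence about the genes. Tests are given for the serum and overexpression tables, which hold other libraries, although CTCF loss as such was part of the choice and earlier results of all tables were known. All 10 genes are listed in the 4 tables of cells not labelled as serum cultures, and 8 are listed in the serum table, where Tuba3b and Magea2 are absent.

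The series holds 32 libraries of polyadenylated RNA in 16 groups of 2. In CTCF AID cells, an auxin-inducible degron on the endogenous protein lets indole-3-acetic acid (IAA, 500 µM) remove CTCF, and libraries were made without IAA and after 12 and 24 h of it. RAD21 AID cells carry the degron on RAD21, which 1 µM 5-Ph-IAA removes, and were taken at 0, 12 and 24 h. CTCF AID cells labelled as serum cultures were taken without IAA and after 12 h. CTCF AID cells that overexpressed a control, wild-type CTCF or mutated CTCF were taken with and without IAA. CTCF AID cells that carried a control hairpin or a hairpin against Chd4 complete the set, with no IAA named in their labels. The control cells of every group therefore carry a degron allele. The growth protocol describes serum-free medium with leukemia inhibitory factor and the inhibitors PD0325901 and CHIR99021 for all samples, including those labelled serum. In 4 libraries the treatment label contradicts the title: both mutated CTCF libraries without IAA in the title carry a 12 h IAA label, and both wild-type CTCF libraries with IAA in the title carry an untreated label. Groups follow the titles here. The labels do not say how many clones a line represents or whether the 2 libraries of a group came from separate cultures, so p-values measure only the spread between these samples, which may be technical.

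Germline genes are among the best studied targets of silencing in early embryonic cells. Their promoters are often rich in CG dinucleotides and are kept off by DNA methylation and by a variant Polycomb complex that E2F6 and the MGA and MAX pair bring to short promoter motifs. Embryonic stem cells grown with the 2 kinase inhibitors named above have low DNA methylation, and several germline genes are then transcribed without the cells becoming germ cells. Dazl encodes an RNA-binding protein needed for germ cell development, Ddx4 an RNA helicase of the germ granule, and Mael a protein of the piRNA pathway, which silences transposons in the germline. Sycp1 and Sycp3 build the synaptonemal complex that joins paired chromosomes in meiosis. Stk31 is a kinase-like protein with a Tudor domain found in germ cells, Slc25a31 the germ-cell form of the mitochondrial ADP/ATP carrier, Tuba3a and Tuba3b are testis alpha-tubulins, and Magea2 is an X-linked member of the MAGE family of cancer-testis genes.

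The values are the authors' normalised counts, whose totals ran from 15364584 to 19642332 per library. These totals are not sequencing depths, which the tables do not give, so no counting intervals are given. All 9 markers of naive embryonic stem cells that were looked up (Pou5f1, Nanog, Sox2, Esrrb, Klf4, Zfp42, Tbx3, Tfcp2l1 and Dppa5a) were listed in every table, and their summed level lay between 57949 and 131066 normalised counts per library. The hairpin lowered Chd4 from 9725 ± 281 to 3554 ± 248 (mean ± SD, n = 2, as throughout). IAA acts on proteins, so the Ctcf and Rad21 transcripts do not check the degradation. In bulk samples, fewer cells that express a gene and less RNA per cell cannot be told apart.

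The promoters of 6 of the genes are shown because they carry the short motifs through which germline promoters are known to be silenced, or, for Dazl, because neither motif was found. The windows are from RefSeq (GRCm38.p6, the mm10 assembly) and run 5′ to 3′ along the gene's strand from 150 bases before to 30 bases after the start. Capitals mark GCGGGA, the E2F6 motif, and CACGTG, the E-box bound by MGA and MAX, on either strand (TCCCGC is the E2F6 motif on the other strand).
Ddx4, chr13:112652281-112652460, minus strand: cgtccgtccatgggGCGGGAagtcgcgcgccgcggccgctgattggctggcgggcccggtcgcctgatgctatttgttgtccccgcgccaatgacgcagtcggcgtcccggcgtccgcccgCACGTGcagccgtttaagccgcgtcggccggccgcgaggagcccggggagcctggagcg
Mael, chr1:166238715-166238894, minus strand: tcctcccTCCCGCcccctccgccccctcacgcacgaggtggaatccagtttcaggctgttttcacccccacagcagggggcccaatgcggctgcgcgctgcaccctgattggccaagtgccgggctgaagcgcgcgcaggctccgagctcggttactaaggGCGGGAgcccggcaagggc
Sycp3, chr10:88459437-88459616, plus strand: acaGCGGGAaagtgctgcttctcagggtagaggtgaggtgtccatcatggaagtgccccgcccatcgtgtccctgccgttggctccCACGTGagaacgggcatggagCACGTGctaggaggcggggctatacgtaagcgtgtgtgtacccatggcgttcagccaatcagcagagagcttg
Slc25a31, chr3:40708721-40708900, plus strand: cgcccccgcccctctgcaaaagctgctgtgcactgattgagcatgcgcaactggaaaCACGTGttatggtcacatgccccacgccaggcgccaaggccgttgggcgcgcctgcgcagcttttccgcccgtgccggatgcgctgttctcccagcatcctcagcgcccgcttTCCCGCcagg
Tuba3b, chr6:145615813-145615992, plus strand: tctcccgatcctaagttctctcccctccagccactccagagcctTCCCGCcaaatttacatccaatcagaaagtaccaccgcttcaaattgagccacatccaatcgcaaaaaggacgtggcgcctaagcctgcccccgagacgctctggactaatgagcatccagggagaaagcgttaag
Dazl, chr17:50293591-50293770, minus strand: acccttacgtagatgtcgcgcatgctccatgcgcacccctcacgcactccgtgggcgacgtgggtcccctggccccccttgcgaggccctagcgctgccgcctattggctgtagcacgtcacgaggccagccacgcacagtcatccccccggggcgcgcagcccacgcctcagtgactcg

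All 10 genes matched RefSeq promoter windows of 300 bases, from 250 before to 50 after the start, and Stk31 matched 2 overlapping ones. Searched on both strands in these longer windows, GCGGGA was present in 7 of the 10 genes (Ddx4, Mael, Sycp1, Sycp3, Slc25a31, Tuba3a and Tuba3b) and in 20% of all 32851 windows. CACGTG was present in 6 genes (Ddx4, Mael, Sycp1, Sycp3, Stk31 and Slc25a31) and in 7.2% of all windows. Both together were present in Ddx4, Mael, Sycp1, Sycp3 and Slc25a31, against 2.0% of all windows. Neither was found in Dazl or Magea2. In Mael the E-box began at position -223 from the start, upstream of the stretch shown, and AGGGGGC, part of the CTCF core motif, matched 3 times, once sharing bases with the upstream E2F6 match. No other member held AGGGGGC, which occurs in 10.6% of all windows, and TATAAA was found in Stk31 alone, against 13.6%. The windows held from 9 CG dinucleotides in Magea2 to 38 in Ddx4, against a median of 7 over all windows. GCGGGA and CACGTG each contain a CG, and the shares over all windows are not matched for CG content. The RefSeq start of Magea2 lies far inside the longer gene annotated by GENCODE. Those of Ddx4 and Tuba3b also lie inside the GENCODE genes, by less than 300 bases. The motifs marked in these promoters therefore lie within the annotated genes.

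By GENCODE M21 (GRCm38, mm10) all 10 are protein-coding. Dazl (ENSMUSG00000010592.9) lies on chromosome 17 from 50279395 to 50293636, Ddx4 (ENSMUSG00000021758.14) on chromosome 13 from 112598333 to 112652475 and Mael (ENSMUSG00000040629.8) on chromosome 1 from 166201201 to 166238747, all on the minus strand. Sycp1 (ENSMUSG00000027855.13) lies on chromosome 3 from 102818499 to 102936100 on the minus strand and Sycp3 (ENSMUSG00000020059.9) on chromosome 10 from 88459569 to 88473236 on the plus strand. Stk31 (ENSMUSG00000023403.14) lies on chromosome 6 from 49395604 to 49469501 and Slc25a31 (ENSMUSG00000069041.8) on chromosome 3 from 40708855 to 40726096, both on the plus strand. Tuba3a (ENSMUSG00000067702.5) and Tuba3b (ENSMUSG00000067338.6) are on chromosome 6, from 125278274 to 125286042 on the minus strand and from 145615757 to 145621479 on the plus strand, and Magea2 (ENSMUSG00000055746.9) is on chromosome X from 155027201 to 155093666 on the minus strand. For several of them there is a limit on what their reads can be assigned to. Of the 1264 exon bases of Sycp3, 660 overlap exons of Chpt1, a choline phosphotransferase gene on the opposite strand, and 75 exon bases of Tuba3a overlap 4930417O13Rik on the opposite strand. Whether the counting used strand is not given in the sources used here. The coding sequence of Magea2 is identical to that of Magea1 at 99.3% of bases, with 7 mismatches, and to Magea3, Magea5 and Magea8 at 97.8% to 97.9%, so its values are uncertain within that family. Tuba3a and Tuba3b share 97% of coding bases, so the split of reads between them is uncertain. In untreated CTCF AID cells Tuba3a averaged 5661 normalised counts and Tuba3b 120.

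The genes are named as silenced in stem cells, and the data go against that name for several of them. In untreated CTCF AID cells Tuba3a read 5739 and 5583 normalised counts and Dazl 2617 and 2599.7. In the same cells Magea2 read 12.4 and 7.98. Per kilobase of exon, the order of levels was Tuba3a (3752 ± 73.2 normalised counts per kb), Dazl (683 ± 3.23), Sycp3 (423 ± 42.7), Stk31 (90.3 ± 0.494), Tuba3b (67.7 ± 3.29), Sycp1 (51.9 ± 10.1), Ddx4 (48.8 ± 0.861), Mael (34.8 ± 1.44), Slc25a31 (23.2 ± 1.30) and Magea2 (5.89 ± 1.81). Only Sycp1 and Ddx4 overlapped among neighbours in this order. Tuba3a came first and Dazl next in the control group of all 4 tables of cells not labelled serum, and Magea2 came last. The middle of the order moved: Sycp3 was at 423 per kb in CTCF AID cells and at 114 ± 18.7 in RAD21 AID cells, below Stk31 there (159 ± 17.4). The tables were normalised separately, so these levels are set side by side and not tested.

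The serum cultures had another order. Sycp3 led (581 ± 1.25 per kb), followed by Ddx4 (103 ± 3.38), Mael (84.0 ± 10.1) and Tuba3a (81.3 ± 5.31), of which the last pair overlapped. As a share of the library's total in ppm, Tuba3a stood at 7.86 ± 0.521 in serum against 364 ± 6.36 in the untreated CTCF AID cells of the other table, and Dazl at 6.20 ± 0.328 against 168 ± 0.446. Stk31 read 5.01 ± 0.724 against 18.8 ± 0.0641 ppm. Ddx4 and Mael were at 19.8 ± 0.635 and 9.33 ± 1.13 ppm in serum, against 9.46 ± 0.148 and 3.88 ± 0.169. Slc25a31 was at 1.67 ± 0.336 ppm in serum against 3.17 ± 0.171, Sycp3 at 47.1 ± 0.143 against 34.5 ± 3.41 and Sycp1 at 10.6 ± 0.0418 against 11.9 ± 2.28. The serum table thus lists Dazl, Tuba3a, Stk31 and Slc25a31 lower and Ddx4, Mael and Sycp3 higher, across tables normalised separately and without a test. Markers of primordial germ cells (7 of 7 listed: Prdm1, Tfap2c, Nanos3, Dppa3, Dnd1, Kit and Itgb3) summed to 1929 to 2005 normalised counts in the untreated serum libraries and to 11707 to 11850 in the other untreated CTCF AID libraries. Fibroblast markers summed to 618 to 655 in serum (4 of 6 listed) against 34.8 to 35.5 (2 of 6 listed). The part of these markers in the levels was not tested.

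**Figure D1:**
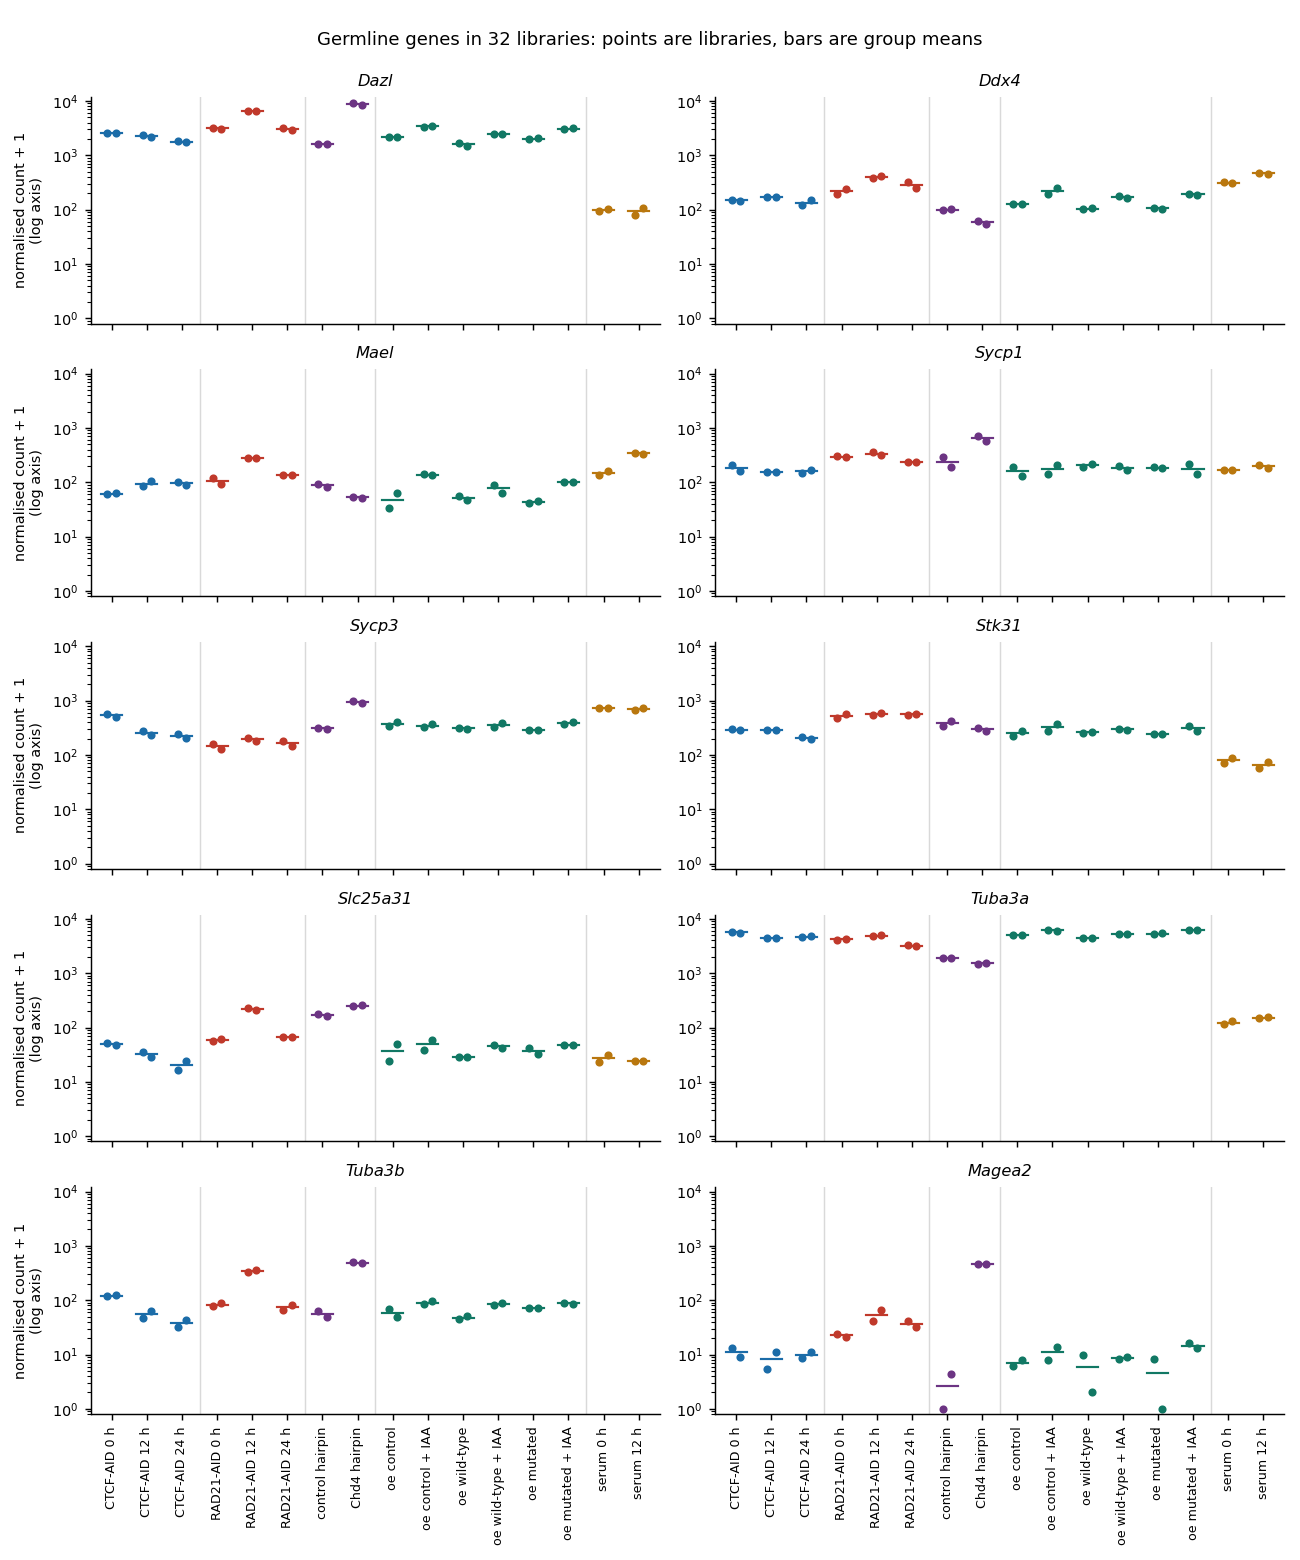
Normalised counts plus 1 (log axis) of the 10 genes in each library, 2 points per group with a bar at the mean; colours are the 5 tables, which were normalised separately. Dazl and Tuba3a sit above 1000 in every library outside serum, within the RAD21 table Tuba3b and Slc25a31 are highest at 12 h, and Magea2 exceeds 100 in the Chd4 hairpin libraries alone (465 and 455).

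After 12 h of RAD21 loss, Tuba3b, Slc25a31, Dazl, Mael and Ddx4 read higher than before, and at 24 h they were back near their starting values or between the 0 h and 12 h values. Tuba3b read 75.7 and 86.6 normalised counts before treatment, 327 and 355 at 12 h, and 66.2 and 81.2 at 24 h. Both 12 h libraries were far above all others, and the 0 h and 24 h libraries overlapped. Slc25a31, the germ-cell ADP/ATP carrier, followed the same course, with 55.2 and 61.8 at 0 h, 225 and 206 at 12 h, and 66.2 and 65.3 at 24 h. Dazl, already abundant, went from 3231 and 2995 to 6457 and 6499 and back to 3127 and 2938, so that its 0 h and 24 h libraries overlapped. The 12 h differences on the log2(value + 1) scale were 2.06 (SE 0.17) for Tuba3b, 1.86 (SE 0.17) for Slc25a31 and 1.06 (SE 0.05) for Dazl.

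The 2 genes of the germ granule and piRNA pathway were also higher at 12 h. Mael read 118 and 92.3 at 0 h, 277 and 281.5 at 12 h, and 135 in both libraries at 24 h. Ddx4 read 192 and 243, then 375 and 409.6, then 316 and 246. Their 12 h libraries lay above every 0 h library, by 1.41 (SE 0.16) for Mael and 0.86 (SE 0.17) for Ddx4 on the log2 scale. Tuba3a had a small excess at 12 h, from 4136 and 4218 to 4844 and 4992 (0.24, SE 0.03), and was lower than at the start at 24 h, with 3241 and 3220.1 (fell by 0.37, SE 0.03). Magea2 read 22.6 and 20.4, then 39.9 and 64.7, then 40.9 and 30.6.

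The meiotic genes and Stk31 did not pass the threshold at 12 h. Sycp3 went from 161 and 127.5 to 208 and 179 at 12 h (0.43, SE 0.18), while Chpt1 on the opposite strand went from 619.5 ± 12.3 to 458 ± 4.77. Sycp1 differed by 0.17 (SE 0.11) and Stk31 by 0.14 (SE 0.10). Of the 10 genes, 6 passed the threshold at 12 h, an adjusted p of 0.05 from limma over all genes tested, all of them higher (Dazl, Ddx4, Mael, Slc25a31, Tuba3a and Tuba3b), beside 6.66% of 13738 genes called higher. At 24 h only Tuba3a passed, lower, beside 7.16% of genes called lower. Since these genes were picked partly for this contrast, nothing is read from the counts. Leaving out the first library at 0 h or either 12 h library took Ddx4 below the threshold, and leaving out the first 0 h or the second 12 h library did so for Tuba3a. The 9 naive markers summed to 108983 to 110877 at 0 h and 104507 to 104657 at 12 h, and the primordial germ cell markers to 12232 to 13237 and 11756 to 11783. The primitive endoderm markers (5 of 7 listed) summed to 111 to 124 at 0 h and 175 to 184 at 12 h, the two-cell markers (4 of 7) to 70.7 to 113 and 121 to 134, and the trophoblast markers (3 of 7) to 534 to 556 and 524 to 571. Their part in the result was not tested.

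CTCF loss in the AID cells went the other way for most of the genes. Sycp3, the lateral element of the synaptonemal complex, read 573 and 497 before IAA, 273 and 234 at 12 h, and 237 and 207 at 24 h, with no overlap between treated and untreated libraries. Tuba3b read 116 and 124, then 45.6 and 63.0, then 30.5 and 42.9. Tuba3a read 5739 and 5583, then 4511 and 4532, then 4577 and 4813. The log2 differences at 12 h were -1.08 (SE 0.14) for Sycp3, -1.15 (SE 0.27) for Tuba3b and -0.32 (SE 0.04) for Tuba3a, and at 24 h -1.26 (SE 0.14), -1.70 (SE 0.27) and -0.27 (SE 0.04). Chpt1, which overlaps Sycp3, was at 474 ± 6.89, 371 ± 59.2 and 387 ± 8.54.

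Dazl, Stk31 and Slc25a31 were lower mainly at 24 h. Dazl read 2617 and 2599.7 at 0 h, 2385 and 2154 at 12 h and 1793 and 1728 at 24 h, each time below the last (24 h difference -0.57, SE 0.06). Slc25a31 was lower by 1.30 (SE 0.32) at 24 h, from 51.2 and 47.3 to 15.8 and 23.6, and Stk31 by 0.52 (SE 0.12), from 293 and 291 to 216 and 192. The piRNA gene Mael was the exception, with 58.5 and 62.0 at 0 h, 83.3 and 102.5 at 12 h and 98.6 and 89.5 at 24 h, which did not pass the threshold (0.63, SE 0.20 at 24 h). Ddx4 stayed within 121 to 168, Sycp1 within 149.9 to 209.7 and Magea2 within 4.53 to 12.4, where its mean was too low to be fitted. Of 9 fitted genes, 3 passed the threshold at 12 h, all lower, beside 8.40% of 13699 genes, and 6 of 9 did at 24 h, all lower, beside 10.8%. Nothing is read from these counts either, since CTCF loss was part of the choice. Tuba3b at 12 h did not pass when any 1 of the 4 libraries compared was left out. At 24 h, Stk31 was lost without either 0 h library or the second 24 h library, and Slc25a31 without either 0 h library or the first 24 h library. Two-cell markers (4 of 7 listed) summed to 332.5 to 356 at 0 h and 159 to 166 at 24 h, and trophoblast markers (4 of 7) to 346 to 360.0 and 243 to 281. The naive markers summed to 99575 to 99656 and 95029 to 95849. Their part in the result was not tested.

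The Chd4 hairpin gave the widest spread among the 10 genes. Dazl read 1634 and 1587 with the control hairpin and 9321 and 8479 with the Chd4 hairpin. Magea2 read 0 and 3.33 against 465 and 455. Tuba3b read 61.6 and 48.3 against 494 and 490.1. These 3 genes had no overlap between the groups by a wide margin, with differences of 2.46 (SE 0.06) for Dazl and 3.15 (SE 0.16) for Tuba3b. No fold is given for Magea2, which was listed at 0 in 1 control library.

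Both synaptonemal complex genes were higher, Sycp1 from 286 and 191 to 719 and 570.5 (1.45, SE 0.20) and Sycp3 from 315 and 300.1 to 979 and 897 (1.605, SE 0.09), while Chpt1 was at 644 ± 105 and 542 ± 11.7. Slc25a31 was higher by a smaller amount, 173.5 and 159 against 244 and 255 (0.58, SE 0.13). Ddx4 and Mael were lower, Ddx4 from 97.4 and 101 to 60.7 and 54.4 (-0.78, SE 0.19) and Mael from 92.9 and 81.3 to 52.4 and 51.2 (-0.74, SE 0.20). Tuba3a was lower as well, from 1918 and 1915 to 1506 and 1524 (-0.34, SE 0.05). The 2 tubulins with 97% of coding bases in common thus lay on opposite sides of their controls. On the threshold, 6 genes passed higher, beside 33.5% of 15499 genes, and 3 lower, beside 33.8%, and nothing is read from these counts. Stk31 (380.3 ± 61.1 against 295 ± 27.8) did not pass, and passed without the first control library. Ddx4, Mael and Slc25a31 were lost when either Chd4 hairpin library was left out.

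Markers of several other cell states moved in the same libraries. The 9 naive markers summed to 125201 to 127176 with the control hairpin and 79916 to 81353 with the Chd4 hairpin. The two-cell markers (6 of 7 listed) summed to 49.6 to 83.2 against 1177 to 1249, the primitive endoderm markers (6 of 7) to 102 to 119 against 943 to 965, and the trophoblast markers (4 of 7) to 414 to 455 against 1498 to 1639. The primordial germ cell markers, 6 of 7 listed, summed to 13052 to 13350 against 8128 to 8472. The sums hide mixed directions. Of the 6 primordial germ cell markers, 2 were called higher and 3 lower, beside 33.5% and 33.8% of all genes. Of the 6 primitive endoderm markers, 4 were called higher and 2 lower. No listed marker was at 0 in both libraries of a group. What part these shifts have in the germline values was not tested.

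**Figure D2:**
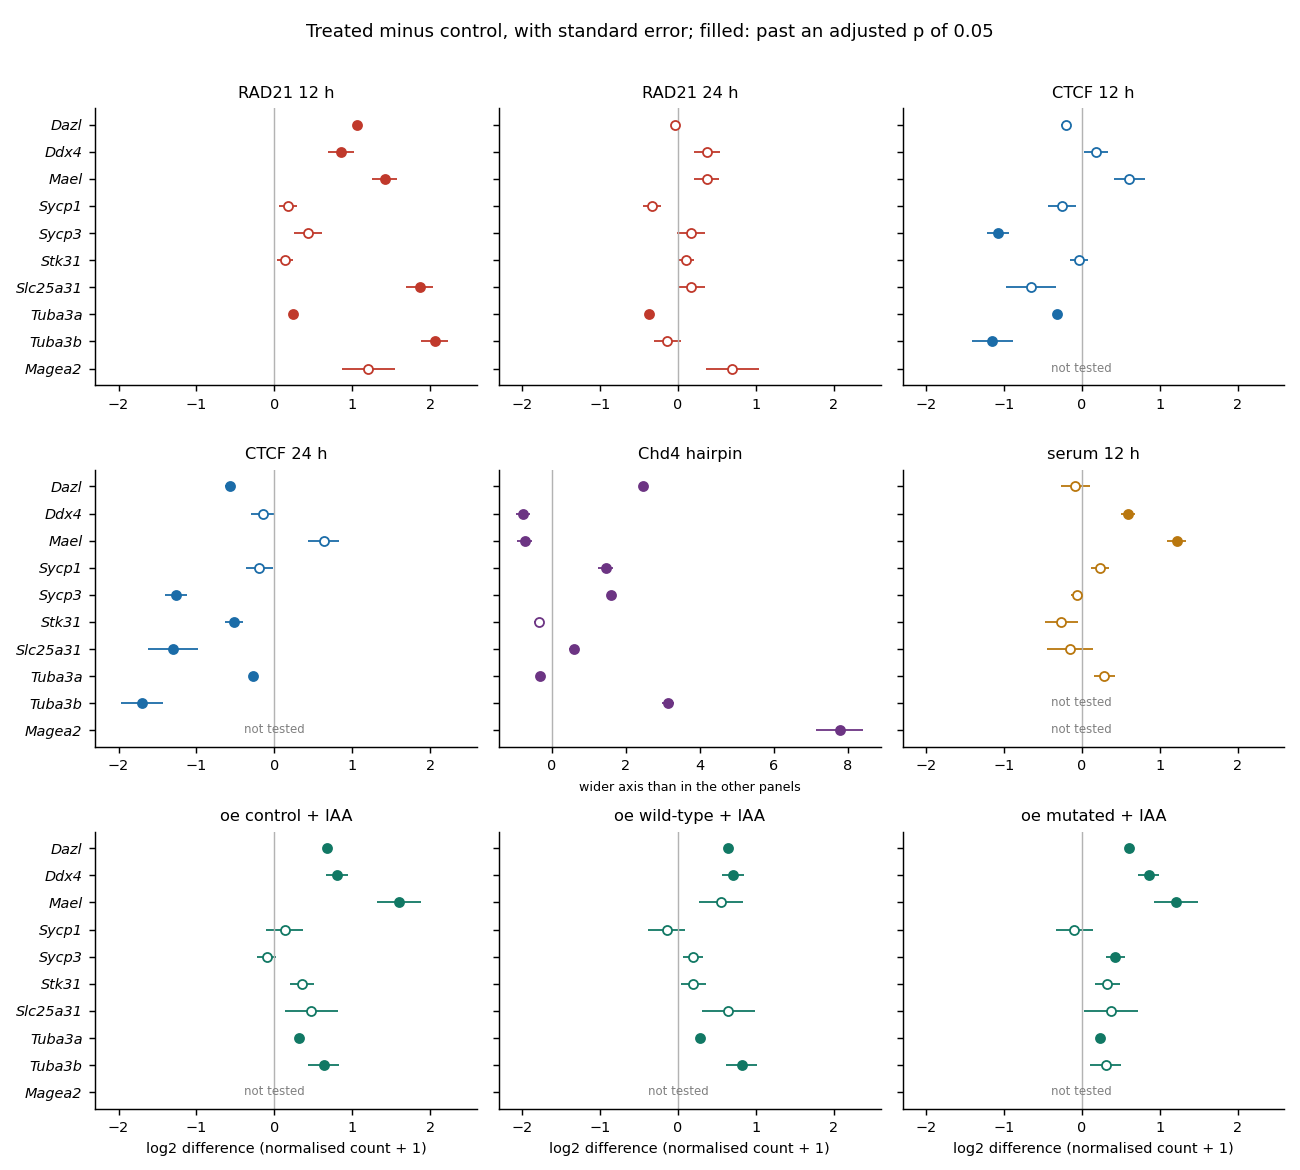
Log2 differences of each gene, treated minus control, with 1 standard error, in 9 comparisons; filled points passed an adjusted p of 0.05 over all genes and the first 5 panels are contrasts used to choose the genes. RAD21 loss at 12 h and IAA in the overexpression table lie mostly to the right of 0. CTCF loss lies mostly to the left, and the Chd4 hairpin on both sides. The Magea2 point there depends on the added 1, since a control library is at 0. Magea2 also passed the filter there only through the Chd4 hairpin libraries.

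In the overexpression control cells, IAA raised 5 of the genes and lowered none, unlike in the CTCF AID table. Dazl read 2152 and 2142 without IAA and 3365 and 3490.2 with it, a rise of 0.67 on the log2 scale (SE 0.06, limma adjusted p 1.14e-05). The germ granule helicase Ddx4 rose from 126 and 125 to 196 and 245 (0.80, SE 0.14, limma adjusted p 0.00194). Mael rose from 32.2 and 61.2 to 139.8 and 133 (1.596, SE 0.28, limma adjusted p 0.00202). No treated library of these 3 genes overlapped an untreated one.

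The tubulins rose too, by less. Tuba3a went from 4958 and 4961 to 6247 and 6049.7 (0.31, SE 0.03, limma adjusted p 4.04e-05) and Tuba3b from 66.7 and 49.1 to 83.0 and 96.1 (0.63, SE 0.20, limma adjusted p 0.0387). These were 5 of 9 genes tested, beside 12.8% of 13938 genes called higher. CTCF loss as such was part of the choice of the genes, so nothing is read from this count. Sycp1 (158 ± 40.8 against 174 ± 42.6), Sycp3 (371 ± 46.4 against 346 ± 32.4), Stk31 (249.7 ± 33.1 against 321 ± 63.1) and Slc25a31 (35.9 ± 17.3 against 48.5 ± 15.1) did not pass. Magea2 was below the filter, with a mean of 6.02 without and 9.98 with IAA. The call of Tuba3b was lost without the second untreated library or either treated library (adjusted p 0.0707 to 0.244), and Stk31 passed without the first treated library (adjusted p 0.0488).

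With overexpressed wild-type CTCF, IAA again raised Dazl. By the titles, it went from 1707 and 1501 without IAA to 2491 and 2514 with it (0.64, SE 0.06, limma adjusted p 3.37e-05), Ddx4 from 99.5 and 108 to 174.5 and 164 (0.70, SE 0.14, limma adjusted p 0.00535) and Tuba3a from 4392 and 4378 to 5318 and 5313 (0.28, SE 0.03, limma adjusted p 0.000151). Tuba3b rose from 43.5 and 49.99 to 79.3 and 87.0 (0.82, SE 0.20, limma adjusted p 0.0143). Mael read 55.7 and 46.9 against 89.7 and 63.6 and did not pass (0.56, SE 0.28, limma adjusted p 0.192). In all 4 of 9 rose, beside 11.1% of genes, and nothing is read from this count for the same reason. The Tuba3b call was lost without the first untreated or the second treated library (adjusted p 0.0787 and 0.0878).

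With mutated CTCF, Dazl went from 2002 and 2059 to 3039 and 3152 (0.61, SE 0.06, limma adjusted p 6.22e-05), Ddx4 from 106.5 and 101 to 196 and 182 (0.86, SE 0.14, limma adjusted p 0.00218), Mael from 40.1 and 44.6 to 99.1 and 98.6 (1.21, SE 0.28, limma adjusted p 0.0151) and Tuba3a from 5230.1 and 5471 to 6292 and 6259 (0.23, SE 0.03, limma adjusted p 0.000596). Sycp3 rose here, from 286 and 285 to 373 and 397 (0.43, SE 0.12, limma adjusted p 0.0367), with Chpt1 at 346 ± 11.5 and 447 ± 46.5. In all 5 of 9 rose, beside 8.31% of genes, and nothing is read from this count either. Mael and Sycp3 were each lost when any 1 of the 4 libraries was left out, with adjusted p from 0.0535 to 0.0795 for Mael and from 0.0895 to 0.178 for Sycp3. The treatment label of 2 of the 4 libraries disagrees with the title in this comparison, as in the one with wild-type CTCF.

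**Figure D3:**
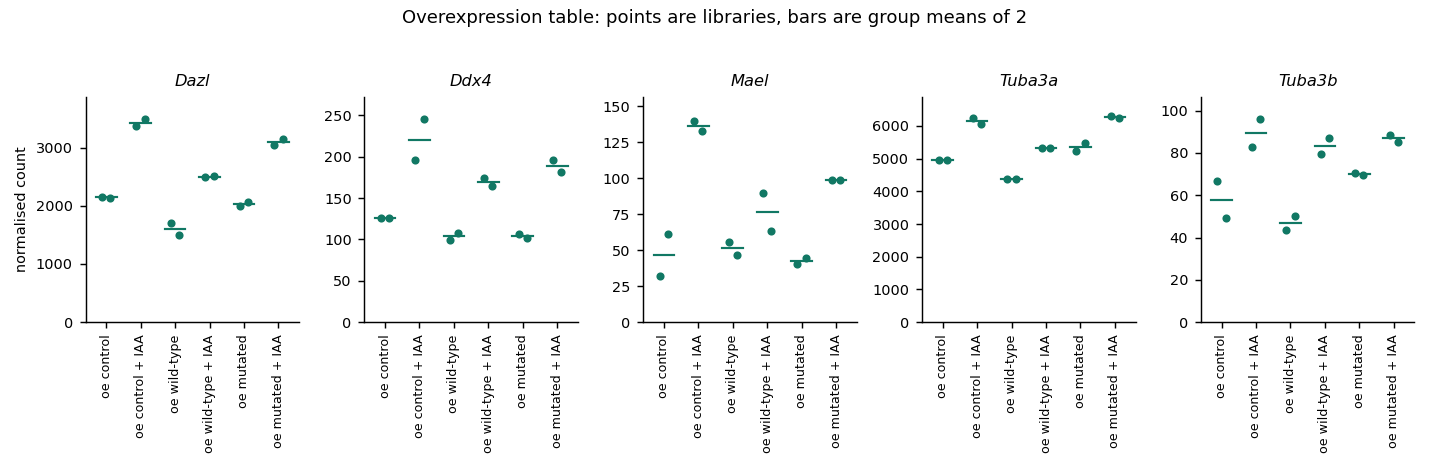
Normalised counts of 5 genes in the 12 libraries of the overexpression table (linear axes from 0, points are libraries, bars are means of 2), grouped by title. Dazl lies higher with IAA than without it beside the control, wild-type and mutated CTCF alike, and its lowest values, 1707 and 1501, are with wild-type CTCF and no IAA.

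The size of the IAA response was compared directly by an interaction term. For Dazl the wild-type CTCF response minus the control response was -0.03 (SE 0.08, limma adjusted p 0.931) and the mutated CTCF response minus the control response -0.07 (SE 0.08, limma adjusted p 0.796). For Mael the differences were -1.04 (SE 0.40, limma adjusted p 0.332) and -0.39 (SE 0.40, limma adjusted p 0.758). None of 9 genes was called by limma in either interaction, beside 1.41% and 1.64% of all genes. In both interactions the treatment label of 1 group contradicts the titles, which were followed here. At an unadjusted p under 0.05, 1 gene of 9 passed in each, near the 11.8% and 12.5% of all genes that did. These were Mael with wild-type and Sycp3 with mutated CTCF (0.53, SE 0.17, limma adjusted p 0.225). With these standard errors a changed response of Mael cannot be told from none.

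Overexpression without IAA lowered 2 genes. Dazl fell by 0.42 on the log2 scale with wild-type CTCF, from 2152 and 2142 to 1707 and 1501 (SE 0.06, limma adjusted p 0.00589), and Tuba3a fell by 0.18, from 4958 and 4961 to 4392 and 4378 (SE 0.03, limma adjusted p 0.0204). They were 2 of 9 genes tested, beside 0.395% of genes called lower. The Tuba3a call was lost without any 1 of the 4 libraries (limma adjusted p 0.0912 to 0.118). Both calls were lost without a mean trend in the variance (limma adjusted p 0.0628 for Dazl and 0.185 for Tuba3a) and when only the groups compared were fitted (limma adjusted p 0.174 and 0.215). With mutated CTCF none of 9 was called by limma, beside 5.55% of genes. The mutated CTCF libraries compared here carry a 12 h IAA label against their titles. At an unadjusted p under 0.05, 2 of 9 passed, near the 20.5% of all genes that did. They were Tuba3a (0.11, SE 0.03, limma adjusted p 0.0634) and Sycp3 (-0.37, SE 0.12, limma adjusted p 0.113). Ctcf itself read 4233 ± 139 in the control, 9378 ± 146 with the wild-type and 9650 ± 87.1 with the mutated construct. In the IAA libraries of all 3 backgrounds, the primordial germ cell markers (7 of 7 listed) summed to 15952 to 17763 normalised counts, against 13273 to 14476 without IAA. The primitive endoderm markers (5 of 7) went from 48.2 to 68.9 without IAA to 126 to 129.8 with it in the control, from 69.8 to 103 to 73.0 to 81.6 with wild-type CTCF, and from 62.8 to 63.3 to 172 to 202 with mutated CTCF. The trophoblast markers (4 of 7) went from 359 to 363 to 280.4 to 281 in the control, from 446 to 482 to 287 to 292 with wild-type CTCF, and from 368 to 389 to 343 to 346 with mutated CTCF. What part these have in the Dazl and Ddx4 values was not tested.

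In serum, IAA raised Mael and Ddx4, and the other 6 genes listed there did not pass the test. Mael rose from 133 and 158 to 348 and 330.4 (1.22, SE 0.12, limma adjusted p 0.000864) and Ddx4 from 317 and 302 to 477 and 457 (0.59, SE 0.08, limma adjusted p 0.00398). Neither gene had overlapping libraries. They were 2 of 8 genes tested, beside 7.73% of 14494 genes called higher, and none of the 8 was called lower. Nothing is read from this count, since CTCF loss as such was part of the choice of the genes. Dazl, at 93.2 and 100.3 without and 79.9 and 104 with IAA, gave a difference of -0.08 (SE 0.18, limma adjusted p 0.794).

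Tuba3a read 117 and 128 against 147 and 153 (0.29, SE 0.13, limma adjusted p 0.188), and Sycp3 734 and 736 against 663 and 743 (-0.07, SE 0.07, limma adjusted p 0.583). Sycp1 (0.23, SE 0.12), Stk31 (-0.26, SE 0.21) and Slc25a31 (-0.15, SE 0.29) did not pass. The libraries of Tuba3a and Sycp1 did not overlap between the groups, although both missed the threshold. The naive markers summed to 68696 to 68961 without and 57949 to 58954 with IAA, and 7 of 9 were called lower, Nanog from 5195 ± 12.6 to 3677 ± 64.3. The primordial germ cell markers summed to 1929 to 2005 without and 1599 to 1718 with IAA, the trophoblast markers (5 of 7 listed) to 775 to 806 and 952 to 975, and the primitive endoderm markers (5 of 7) to 277 to 291 and 326 to 396. Their part in the rise of Mael and Ddx4 was not tested.

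Other germline genes were counted from lists written from general knowledge, with earlier results of these data known. The genes named from them were mostly picked for large called differences, which their p-values do not allow for. Of the other piRNA and germ granule genes, 4 of 16 tested were called higher and none lower at 12 h of RAD21 loss, beside 6.66% of all genes called higher, with a median of 0.403 against -0.001 over all genes. They include Piwil2, a PIWI protein (473 ± 37.7 to 829 ± 55.0, limma adjusted p 0.00818), and Asz1 (135 ± 12.0 to 268 ± 23.8, limma adjusted p 0.0374). With the Chd4 hairpin 12 of 17 were higher and 4 lower, beside 33.5% and 33.8%, with Piwil4, another PIWI protein, from 11.8 ± 1.68 to 141 ± 22.9 (limma adjusted p 4.82e-05) and Asz1 from 28.5 ± 6.10 to 351 ± 28.6 (limma adjusted p 1.58e-05). IAA lowered 4 of 16 and raised none in the overexpression control, beside 12.5% and 12.8% of all genes, among them Tex15 (905 ± 48.5 to 388 ± 27.7, limma adjusted p 2.23e-05). In serum none of 13 rose and 2 fell, beside 7.73% and 9.25%, with Tdrd12, a Tudor-domain protein of the pathway, at 298 ± 17.2 and 144 ± 20.8 (limma adjusted p 0.00258). The list's median in serum was 0.219 on the log2 scale, opposite in sign to its 2 called genes.

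Of 15 other genes of the meiotic axis tested, none was called at 12 h of RAD21 loss, and 7 were higher and 4 lower with the Chd4 hairpin, near the 33.5% and 33.8% of all genes. Sycp2, the partner of Sycp3, was among the higher ones, at 4.50 ± 6.36 and 124 ± 0.727. Its control mean lay below the filter of 10, so it was tested only through the Chd4 hairpin libraries and no p-value is given. Of 10 recombination genes, 6 were lower and none higher with the Chd4 hairpin, beside the same 33.8% and 33.5%, including Dmc1, the meiotic recombinase (299.6 ± 45.1 to 75.4 ± 3.12, limma adjusted p 6.87e-05). IAA raised Mei4, which takes part in meiotic break formation, in serum (94.95 ± 4.44 to 209.5 ± 7.96, limma adjusted p 0.0016). It did so in the overexpression control (88.8 ± 14.0 to 179.9 ± 46.4, limma adjusted p 0.0124) and in the CTCF AID cells at 12 h (67.4 ± 3.04 to 158 ± 15.4, limma adjusted p 0.00381). Mnd1, which acts with Dmc1, rose in the same 3 comparisons, in the CTCF AID cells from 441 ± 3.72 to 981 ± 22.6 (limma adjusted p 0.000257).

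Among the germ cell regulators, 5 of 15 tested were called lower and 1 higher at 12 h of CTCF loss, beside 8.40% and 9.39% of all genes. Stra8, the retinoic acid target that starts meiosis, fell from 2050.0 ± 159 to 272 ± 1.24 (limma adjusted p 9.82e-05), and Dppa3 rose from 153 ± 7.12 to 425 ± 13.2 (limma adjusted p 0.000218). With IAA in the overexpression control, Stra8 rose from 277 ± 0.625 to 661 ± 30.2 (limma adjusted p 9.48e-05) and Dppa3 from 369.8 ± 9.01 to 945 ± 9.18 (limma adjusted p 4.82e-06). Stra8 thus lay on opposite sides of its control in the 2 tables, as Tuba3a and Tuba3b did, while Dppa3 rose in both; the difference between tables was not tested. With the Chd4 hairpin, 10 of 16 germ cell regulators tested were called higher and 3 lower, beside 33.5% and 33.8% of all genes. Of the X-linked cancer-testis genes, 5 of 20 were higher at 12 h of RAD21 loss and none lower, beside 6.66% and 6.35% of all genes. With the Chd4 hairpin 16 of 23 were higher and 5 lower, beside 33.5% and 33.8%. Magea8, a close copy of Magea2, went from 4.06 ± 2.58 to 530 ± 32.9. Magea10, which is only 62.1% identical to Magea2, went from 1.18 ± 1.67 to 192 ± 10.4. Both control means lay below the filter of 10, so these genes were tested only through the Chd4 hairpin libraries and no p-value is given. The 16 genes called higher include both. Of 10 testis forms of housekeeping genes, 7 were higher with the Chd4 hairpin and none lower, beside the same 33.5% and 33.8%, such as Tktl1, a transketolase relative (12.99 ± 11.7 to 336.5 ± 13, limma adjusted p 0.000316).

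**Figure D4:**
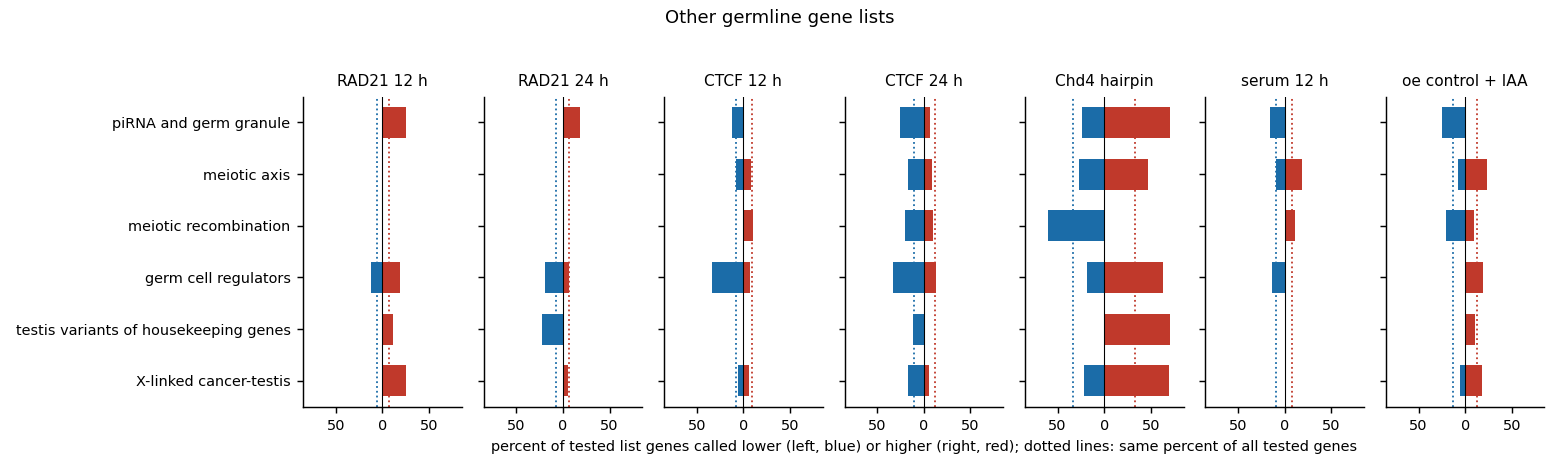
Percent of the tested genes of 6 other germline lists called higher (red, right) or lower (blue, left) in 7 comparisons; dotted lines give the same percent over all tested genes. The piRNA list has 4 of 16 genes called higher at 12 h of RAD21 loss and 4 of 16 called lower with IAA in the overexpression control, and the Chd4 hairpin has long bars beside a background of 33.5% and 33.8%.

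The genes that silence the germline were looked at in the same way. At 12 h of RAD21 loss the subunits of the E2F6 and MGA Polycomb complex gave 3 of 14 higher and 1 lower, beside 6.66% and 6.35% of all genes. The median over the 14 was -0.004 on the log2 scale, against -0.001 over all genes. The 1 lower subunit was Rybp, from 3390 ± 13.9 to 2757 ± 81.3 (limma adjusted p 0.00666), and the 3 higher ones are not named here. With the Chd4 hairpin 4 of 14 were higher and 7 lower, beside 33.5% and 33.8%, with Cbx3, a heterochromatin protein, from 11320 ± 101 to 6402 ± 280 (limma adjusted p 1.34e-05). Of the DNA methylation genes, Dnmt3l, a cofactor of the de novo methyltransferases, rose with the Chd4 hairpin from 459.8 ± 6.29 to 5845 ± 24.0 (limma adjusted p 1.07e-06) and Uhrf1, which guides maintenance methylation, fell from 11640 ± 78.1 to 4147 ± 44.3 (limma adjusted p 1.87e-06). In serum, IAA raised Dnmt3a from 3774 ± 15.2 to 4940.0 ± 43.2 (limma adjusted p 0.000214) and lowered Tet2 from 3578 ± 44.2 to 2313 ± 143 (limma adjusted p 0.000242). Their part in the germline values was not tested.

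Of 7 somatic relatives of the tubulins, the carrier and Ddx4, 3 were called higher and 1 lower at 12 h of RAD21 loss, beside 6.66% and 6.35% of all genes, and none higher and 4 lower with the Chd4 hairpin, beside 33.5% and 33.8%. At 12 h of RAD21 loss, where Slc25a31 was 215 ± 13.2, its somatic relative Slc25a4 fell from 10590 ± 34.4 to 8011 ± 328 (limma adjusted p 0.00113). With the Chd4 hairpin the somatic alpha-tubulin Tuba1b fell from 20160 ± 125 to 15750 ± 421 (limma adjusted p 0.000222), while Tuba3b was at 491.9 ± 2.49.

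Across the 32 libraries, after centring each table on its mean, Ddx4 and Mael ran together (r = 0.834), as did Dazl and Sycp3 (r = 0.792), while Sycp1 and Stk31 had r = -0.249. Compared with 12389 genes whose mean reached 10 in each of the 5 tables, those most like Dazl were Tex19.1 (r = 0.912) and H3f3b (r = 0.909), those most like Ddx4 were Tnfrsf1a (r = 0.873) and Radil (r = 0.858), and those most like Mael were Socs3 (r = 0.880) and Rps6kl1 (r = 0.864). Sycp3 was most like Arfgef3 (r = 0.924) and Spc25 (r = 0.895), Sycp1 like Noct (r = 0.85), Stk31 like Tmem120a (r = 0.712), Slc25a31 like Mrpl20 (r = 0.822) and Tuba3a like Cycs (r = 0.855). The libraries share tables and treatments, so these are descriptions, and the large differences with the Chd4 hairpin weigh on all of them. Tuba3b and Magea2 lack a sufficient mean in every table and were not compared.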

How the data were processed

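RNA sequencing of 32 libraries in 16 groups of 2 was deposited as 5 tables of normalised counts. These signal values were made by the authors before they deposited them and were normalised separately for each table. The submitters' processing notes name Trim Galore, Bowtie2, STAR, RSEM and DESeq2 and the build mm10, without role or order; whether counting used strand is not given in the sources used here. Whole reads could not be recovered (11.2% to 50.4% of low values came out whole within 0.02), so no count test was run and the depth is unknown. The last line of the CTCF table breaks off inside a gene name and was dropped.

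From these values, log2(value + 1) was fitted with limma 3.58.1 (R 4.3.3, empirical Bayes with a mean trend), all groups of a table in one fit, for genes with a mean of at least 10. P-values were adjusted by Benjamini-Hochberg over all genes tested, and an adjusted p under 0.05 was called. Fold changes on this scale understate the change of low genes. The script was tested on simulated data. The members and lists were chosen with earlier results of these data known. Named genes are the members, the targeted genes, the 2 genes per list with the greatest called log2 difference in a comparison (libraries apart, the higher group's mean 20 or more), the members' paralogs, and the genes most like a member. Mei4 and Mnd1 are named for IAA in serum, in the overexpression control and at 12 h in the CTCF AID cells. Other comparisons of CTCF loss are not given for them. Alternatives were other pseudocounts, filters, rescalings and variance models, a 2-fold minimum, a replicate block and leaving out each library. Replicate numbers do not pair the libraries by the labels, and correlations of same-numbered libraries ran from -0.160 to 0.152. Coordinates are from GENCODE M21 and promoters from RefSeq, both GRCm38.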

Additional observations from a re-analysis of the deposited data

Results flagged for a closer look

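For 5 of the germline genes, the libraries after 12 h of IAA in the CTCF AID table lay on one side of their untreated controls and the IAA libraries of another table lay on the opposite side. Dazl differed by -0.20 on the log2 scale after 12 h of IAA in the CTCF AID cells and by 0.67 with IAA in the overexpression control. Tuba3a differed by -0.32 in the CTCF AID cells, by 0.31 in the overexpression control and by 0.29 in serum. Tuba3b differed by -1.15 and, in the overexpression control, by 0.63. Stk31 differed by -0.04 and 0.35 in the same pair, and Sycp1 by -0.25 in the CTCF AID cells and by 0.23 in serum. Several of these are small beside their standard errors. The difference between tables was not tested, because the tables were normalised separately.

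Between the CTCF AID table and the overexpression control, 4 of 9 genes lay on opposite sides without overlap and 2 on the same side, against 11.3% and 31.1% of 13367 genes in both. Between the CTCF AID table and serum, 2 of 8 were opposite and 2 the same, against 15.5% and 24.4% of 12959 genes. Between serum and the overexpression control, none of 8 was opposite and 3 were the same, against 12.3% and 28.9% of 13181 genes. CTCF loss was part of the choice of the genes, so nothing is read from these counts.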

How the results depend on the processing

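No called difference changed sign under any alternative run. Over the single differences of the 10 genes under all alternatives, 1604 kept their sign and their side of the threshold, 53 lost the call and 9 gained it. A further 42, none of them called, changed sign, most when 1 library was left out; Stk31 at 12 h of CTCF loss, a difference near 0, did so under quantile normalisation. With a 2-fold minimum the number of genes called was 1 of 2 in serum, 1 of 5 in the overexpression control, 0 of 4 with wild-type CTCF and IAA, 1 of 5 with mutated CTCF and IAA, and 0 of 2 with wild-type CTCF without IAA; it was 0 of 1 at 24 h of RAD21 loss, 3 of 6 at 24 h of CTCF loss and 5 of 9 with the Chd4 hairpin. Without a mean trend in the variance it was 1 in serum (Ddx4, adjusted p 0.0545 by limma, was lost), 0 with wild-type CTCF without IAA, 0 at 24 h of RAD21 loss and 1 at 12 h of CTCF loss. The same setting lost Sycp3 with mutated CTCF and IAA (limma adjusted p 0.0615). It also lost Ddx4 and Tuba3a at 12 h of RAD21 loss and Tuba3a at 24 h of CTCF loss. Fitting only the groups compared left 0 with wild-type CTCF without IAA. That setting also lost Tuba3b in the overexpression control (limma adjusted p 0.113) and with wild-type CTCF and IAA (limma adjusted p 0.0514). Quantile normalisation gave 5 at 12 h of CTCF loss, where Dazl was gained as lower (-0.28) and Mael as higher (0.80). Mael was also gained as higher at 24 h of CTCF loss, under quantile normalisation (0.79) and without a mean trend (0.63). Leaving out each library in turn gave 2 in serum, 4 to 5 in the overexpression control, 3 to 4 with wild-type and 3 with mutated CTCF and IAA, 1 with wild-type CTCF without IAA, 4 to 6 and 1 at 12 and 24 h of RAD21 loss, 2 and 4 to 5 at 12 and 24 h of CTCF loss, and 6 to 10 with the Chd4 hairpin. The cause of these changes was not tested. The replicate numbers are shared numbers only; a replicate block gave 2 genes in serum, 4 in the overexpression control (Tuba3b lost, adjusted p 0.0508 by limma), 4, 5 and 2 in the other overexpression comparisons with calls, 6 and 1 for RAD21 loss, 4 and 6 for CTCF loss and 10 for the Chd4 hairpin. In serum, where the same-numbered libraries had r = -0.160, a crossed block, added after seeing the data, gave 2. The sequencing depth is unknown, so what it limits for the low genes, Magea2 above all, cannot be stated as an interval.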
